A study of Homo sapiens with 4 samples.

Results

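The resting transcriptome of LN229 cells, an established human glioblastoma cell line, was described from the libraries of cells that received vehicle alone. Members were chosen by label, not by measured values: 2 of the 4 RNA-seq libraries of the series, vehicle 1 and vehicle 2, were taken, and all 27694 genes of the table were ranked by their mean level over both. The cells of both libraries had been kept for 24 h with DMSO, the solvent, in medium with 5% fetal bovine serum, and had received no other agent. The other 2 libraries came from LN229 cells given UM-164, an inhibitor of c-Src and p38, and were not used here. Each group is a single cell line in culture, so neither tumour stroma, vessels nor immune cells of a brain are part of the model.

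Levels are FPKM, the fragments assigned to a gene, divided by transcript length and by the size of the library, so that levels of different genes can be set side by side. Pairs of values are given throughout as vehicle 1 and then vehicle 2, with n = 2 for every ± SD. The labels do not say whether the libraries came from separate cultures, so the spread between them may be technical. With 1 group no test was run, and a difference of level between genes is called larger than the spread only where the values of both libraries do not overlap. A gene is called expressed at 1 FPKM or more in both libraries and near-silent under 0.1 FPKM in both. Depth could not be counted from FPKM, and in bulk RNA fewer cells of a type and less RNA per cell cannot be told apart.

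Glioblastoma is an aggressive tumour of glial appearance. Its cells carry features of astrocytes, oligodendrocyte progenitors and neural stem cells, and a mesenchymal state with abundant matrix, integrins and AP-1 factors is one of its recognised expression states. Growth signals in this tumour commonly come from receptor tyrosine kinases such as EGFR and PDGFRA, and the brakes often lost include the RB pathway, with CDKN2A on chromosome arm 9p a frequent target. HOX genes, which give positional identity to the trunk in the embryo, are mostly silent in the normal forebrain.

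Of the 27694 genes, 10837 (39.1%) were expressed, 3537 reached 10 FPKM, 378 reached 100 and 23 reached 1000 in both libraries, while 8122 were near-silent and 2630 of these were listed at 0 in both. Protein-coding genes made up most of the expressed set. Of 15444 protein-coding genes 9612 (62.2%) were expressed, at a median of 2.44 FPKM, against 1225 of 12250 other genes (10%). The 62.2% is the background for the gene lists below that hold mainly protein-coding genes. The 10 highest genes held 17.4% ± 0.373 of the summed FPKM and the 100 highest held 38.9% ± 0.876.

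**Figure D1:**
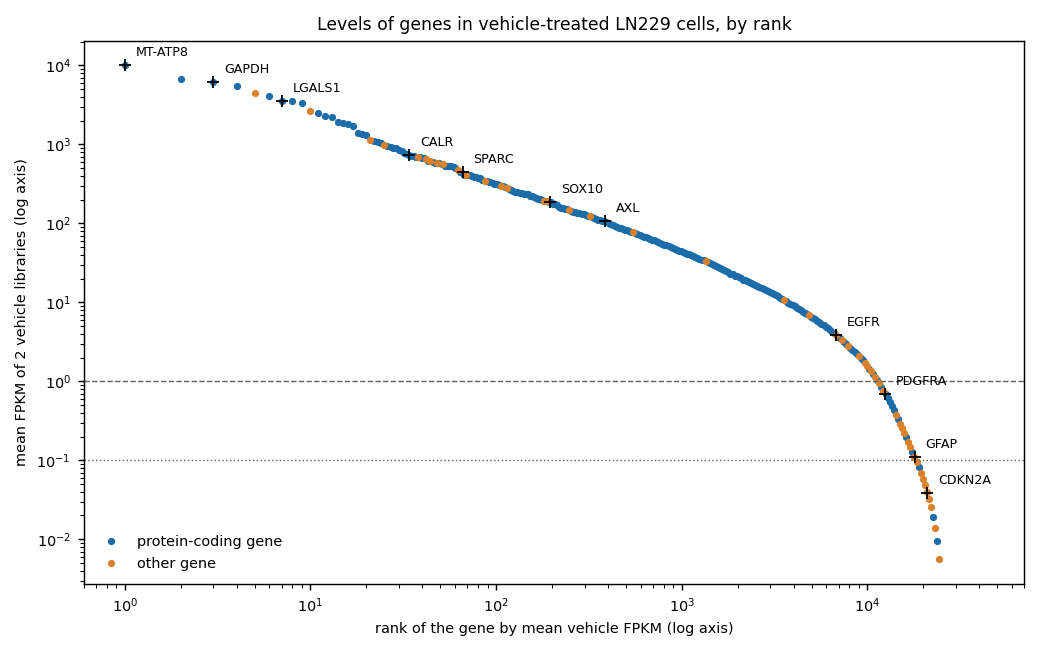
Mean FPKM over the 2 vehicle libraries (log axis) against the rank of the gene (log axis), with points at ranks spaced evenly on that axis and genes under 0.003 left out. Blue points are protein-coding genes and orange points other genes, the dashed line is 1 FPKM, the dotted line 0.1 FPKM, and crosses mark named genes. Levels span from MT-ATP8, a short gene of uncertain level, at a mean of 9975 ± 399 FPKM to genes such as GFAP and CDKN2A close to or under the dotted line.

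The highest nuclear protein-coding gene was GAPDH (ENSG00000111640), the glycolytic dehydrogenase, at 6453 and 5829 FPKM. TMSB10, a small protein that binds actin monomers, followed at 5886 and 5004 FPKM, and the ranges of these genes overlapped. LGALS1 (galectin-1), a lectin that is abundant in mesenchymal cells, measured 3791 and 3249 FPKM and lay below both beyond the spread. S100A6, a calcium-binding protein of motile cells, measured 2285 and 2147 FPKM. Next came the metal-binding metallothionein MT2A (1993 and 1707 FPKM), the ferritin light chain FTL (1963 and 1681 FPKM) and the cytokine MIF (1891 and 1540.1 FPKM), whose ranges overlapped one another. The remaining genes of the 20 highest were EEF1A1, RPL41 and RPS27 of the translation machinery, TUBA1B and TUBB of microtubules, ACTB, PFN1 and SH3BGRL3, the glycolytic enzymes ENO1 and TPI1, COX8A and CHCHD2 of mitochondria, and the chaperone CALR, between 720.3 and 1338 FPKM. ACTB, the usual cytoplasmic actin, was the least steady of them at 1074 and 743 FPKM.

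To show the sequence around the start sites of genes at the ends of this ranking, promoter windows of RefSeq (GRCh38.p14, from 250 bases before to 50 bases after the start site, 300 bases, 5′ to 3′ on the gene's own strand) are printed for 4 expressed and 2 near-silent genes. CG dinucleotides, the sites of DNA methylation, are in capitals.
GAPDH (chr12:6535014-6535313, plus strand): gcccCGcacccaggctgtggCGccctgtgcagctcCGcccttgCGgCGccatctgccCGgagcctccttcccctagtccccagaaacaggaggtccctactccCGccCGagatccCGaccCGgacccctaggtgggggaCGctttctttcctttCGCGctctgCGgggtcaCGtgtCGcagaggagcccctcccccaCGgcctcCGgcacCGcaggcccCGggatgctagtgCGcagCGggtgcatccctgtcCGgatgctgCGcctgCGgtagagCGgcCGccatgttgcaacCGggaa
S100A6 (chr1:153535942-153536241, minus strand): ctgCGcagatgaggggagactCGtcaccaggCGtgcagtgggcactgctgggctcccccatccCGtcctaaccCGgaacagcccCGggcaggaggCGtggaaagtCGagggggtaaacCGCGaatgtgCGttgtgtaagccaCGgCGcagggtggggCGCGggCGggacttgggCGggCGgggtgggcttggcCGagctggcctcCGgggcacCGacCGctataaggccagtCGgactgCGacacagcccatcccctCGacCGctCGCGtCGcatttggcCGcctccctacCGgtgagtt
SPARC (chr5:151686866-151687165, minus strand): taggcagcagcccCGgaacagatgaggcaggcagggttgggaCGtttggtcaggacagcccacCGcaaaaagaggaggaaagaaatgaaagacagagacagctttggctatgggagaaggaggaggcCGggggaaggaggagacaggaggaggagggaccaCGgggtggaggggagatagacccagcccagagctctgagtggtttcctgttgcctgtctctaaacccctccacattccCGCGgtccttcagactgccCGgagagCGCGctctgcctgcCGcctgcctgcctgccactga
CD74 (chr5:150412861-150413160, minus strand): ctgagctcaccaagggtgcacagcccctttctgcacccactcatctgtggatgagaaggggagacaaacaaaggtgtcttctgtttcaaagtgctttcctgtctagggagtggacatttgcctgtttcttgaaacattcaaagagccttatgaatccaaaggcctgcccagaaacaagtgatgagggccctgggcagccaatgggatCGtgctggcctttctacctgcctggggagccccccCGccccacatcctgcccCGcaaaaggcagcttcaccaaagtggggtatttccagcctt
CDKN2B (chr9:22009256-22009555, minus strand): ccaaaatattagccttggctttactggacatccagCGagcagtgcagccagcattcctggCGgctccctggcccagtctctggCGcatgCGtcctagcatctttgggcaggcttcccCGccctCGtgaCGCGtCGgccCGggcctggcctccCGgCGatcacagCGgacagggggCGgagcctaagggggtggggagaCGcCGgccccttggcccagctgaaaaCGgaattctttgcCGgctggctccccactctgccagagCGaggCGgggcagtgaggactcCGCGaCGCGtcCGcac
CHI3L1 (chr1:203186655-203186954, minus strand): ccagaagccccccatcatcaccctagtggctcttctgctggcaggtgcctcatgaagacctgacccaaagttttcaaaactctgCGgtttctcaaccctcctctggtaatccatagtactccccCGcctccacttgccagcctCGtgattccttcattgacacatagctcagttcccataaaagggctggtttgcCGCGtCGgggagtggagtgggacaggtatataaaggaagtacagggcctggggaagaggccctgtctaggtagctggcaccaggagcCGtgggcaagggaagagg
The windows of GAPDH and S100A6 held 28 and 31 CG dinucleotides, and that of CDKN2B, a cell cycle inhibitor listed at 0 and 0.0112 FPKM, held 25. SPARC and CD74, both above 100 FPKM, held 11 and 3, and CHI3L1, a secreted glycoprotein of reactive astrocytes listed at 0 and 0.07 FPKM, held 7. The median over all 35116 RefSeq windows of this length was 14 (quartiles 4 and 28). The 6 genes were picked by hand, so their CG counts cannot show how such counts relate to level. Of the 6 windows, that of CHI3L1 held the motif TATAAA on the gene's strand, with its first base 27 bases before the start site, and 11.5% of all windows hold TATAAA on either strand. The windows of GAPDH and S100A6 lie wholly inside the GENCODE ranges of these genes (6533927 to 6538374, and 153534599 to 153536244). Sequence upstream of these ranges is not shown, so their CG counts and lack of TATAAA hold for the printed windows only. Methylation was not measured.

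Transcripts of the mitochondrial genome supplied much of the library. Its 13 protein-coding genes, all of them subunits of the respiratory chain or of ATP synthase, held 13.6% ± 0.348 of the summed FPKM, and all 37 of its genes held 15.1% ± 0.464. MT-ATP8, a subunit of ATP synthase, was the highest gene of the table at 10257 and 9693 FPKM. MT-CO2, a catalytic subunit of cytochrome c oxidase, measured 6834 and 6549.8 FPKM, MT-CO3 4069 and 4227 FPKM, and MT-CYB 3575 and 3429.9 FPKM. The lowest of the 13 was MT-ND5, of complex I, at 533 and 617 FPKM. MT-ATP8 lies on the mitochondrial genome of GRCh38 from 8366 to 8572 and overlaps MT-ATP6 (8527 to 9207, 696 and 743 FPKM), so fragments in the shared bases cannot be assigned to one of them. As FPKM divides by length and MT-ATP8 is short, its level and its place as the highest gene are uncertain. A nuclear copy of the latter on chromosome 1, MTATP6P1, was listed at 621 and 596 FPKM, and the split between these copies is uncertain. The mitochondrial ribosomal RNAs MT-RNR2 (925 and 1016 FPKM) and MT-RNR1 (296 and 341 FPKM) and the tRNA genes led by MT-TN (695 and 695 FPKM) held 0.449% ± 0.0456 and 1.01% ± 0.0700 of the sum.

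Among the other RNA classes, long non-coding RNAs held 4.15% ± 0.274 of the summed FPKM although 519 of 6237 were expressed. Most of that share came from short genes on the arm of chromosome 21 that carries ribosomal DNA: those named FP236383 and FP671120 held 3.09% ± 0.298, and the highest of them (ENSG00000281181, chromosome 21 from 8437629 to 8438551) measured 4909 and 4140 FPKM. The copies are named alike, and some lie inside genes of the same name on the other strand. For example, ENSG00000280800 (minus strand, 8210384 to 8211306) lies inside ENSG00000278996 (plus strand, 8197620 to 8227646). As the library strand is not given, the level of each and the long non-coding share they make up are uncertain. Among long non-coding RNAs of known function the highest were SNHG6, a host of small nucleolar RNAs, at 49.3 and 47.3 FPKM, NORAD, which binds Pumilio proteins, at 36 and 45.6 FPKM, and the imprinted H19 at 26.1 and 24.9 FPKM. MALAT1, a nuclear RNA that is among the most abundant of many tissues, measured 2.47 and 3.5 FPKM, and NEAT1, the scaffold of paraspeckles, 0.338 and 0.452 FPKM. HOTAIR, transcribed within the HOXC cluster, was expressed in one library only at that threshold (0.816 and 2.68 FPKM). Of 37 listed long non-coding RNAs 22 were expressed, against 519 of 6237 in the class. The list was written by hand, so this contrast depends on the choice of members.

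Processed pseudogenes held 3.28% ± 0.0667 of the sum with 385 of 2494 expressed. The highest, RPS2P5, measured 646 and 518 FPKM beside 706 and 687 FPKM for its parent RPS2, and EEF1A1P5 measured 425 and 509 FPKM beside 1278 and 1338 FPKM for EEF1A1. Parents and copies are near-identical, so the division of fragments between them is uncertain. Of 519 miRNA genes 15 were expressed. The highest, MIR1244-1, lies inside PTMA on chromosome 2 (231713314 to 231713398) and measured 429.7 and 387 FPKM beside 201 and 199 FPKM for PTMA, so the precursor and its host cannot be told apart. Structured RNAs were low: the signal recognition particle RNAs RN7SL1 and RN7SL2 measured 21 and 16.5 FPKM, and 5.46 and 10.9 FPKM, and RN7SK, which holds back the elongation factor P-TEFb, 1.14 and 0.718 FPKM. RMRP, an RNA of a mitochondrial and nucleolar endonuclease, was listed at 0.493 and 0 FPKM. How well the libraries captured short and structured RNAs was not measured. These low levels and the miRNA count therefore need not reflect the amounts in the cell.

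Receptor tyrosine kinases, which bind growth factors outside the cell and phosphorylate tyrosines inside it, were expressed from 25 of 51 measured genes, a share of 49.0% against 62.2% of coding genes. One receptor stood above all others. AXL (ENSG00000167601), the receptor for GAS6, measured 104 and 108 FPKM, and its ligand GAS6 8.45 and 7.61 FPKM. The next was EPHA2, a receptor for ephrin-A ligands, at 47.8 and 46.6 FPKM, which lay below AXL and above every other receptor kinase beyond the spread. EPHB4 and EPHB3, receptors of ephrin-B ligands, measured 18.6 and 20.4 FPKM, and 18.4 and 18.7 FPKM, respectively, and overlapped. ERBB2, a partner of the other EGF receptors, measured 15.7 and 15.9 FPKM. ERBB3, which binds neuregulins, measured 12.3 and 18.7 FPKM, and the collagen receptor DDR1 15 and 14.9 FPKM. The range of ERBB3 overlapped those of ERBB2 and DDR1.

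The growth factor receptors best known in glioblastoma were lower. EGFR measured 3.36 and 4.34 FPKM, the HGF receptor MET 4.96 and 7.18 FPKM, FGFR1 6.3 and 6.13 FPKM, and IGF1R 2.98 and 3.66 FPKM. Both libraries of EGFR lay below all libraries of ERBB2 and ERBB3. PDGFRB was at 1.2 and 1.09 FPKM, and PDGFRA, the receptor of oligodendrocyte progenitors, was under the threshold at 0.556 and 0.825 FPKM. Its ligand PDGFA was expressed at 27.5 and 29.2 FPKM. In the TAM group of AXL, TYRO3 measured 5.83 and 5.34 FPKM and MERTK 0.00952 and 0 FPKM. In all, 17 receptor kinases were near-silent, among them ERBB4 (0.0203 and 0.04 FPKM), FGFR2 (0 and 0.0121 FPKM) and the angiopoietin receptor TEK (0.0361 and 0.0196 FPKM), and 5 were listed at 0 in both libraries, among them EPHA8, MUSK and ROR2.

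**Figure D2:**
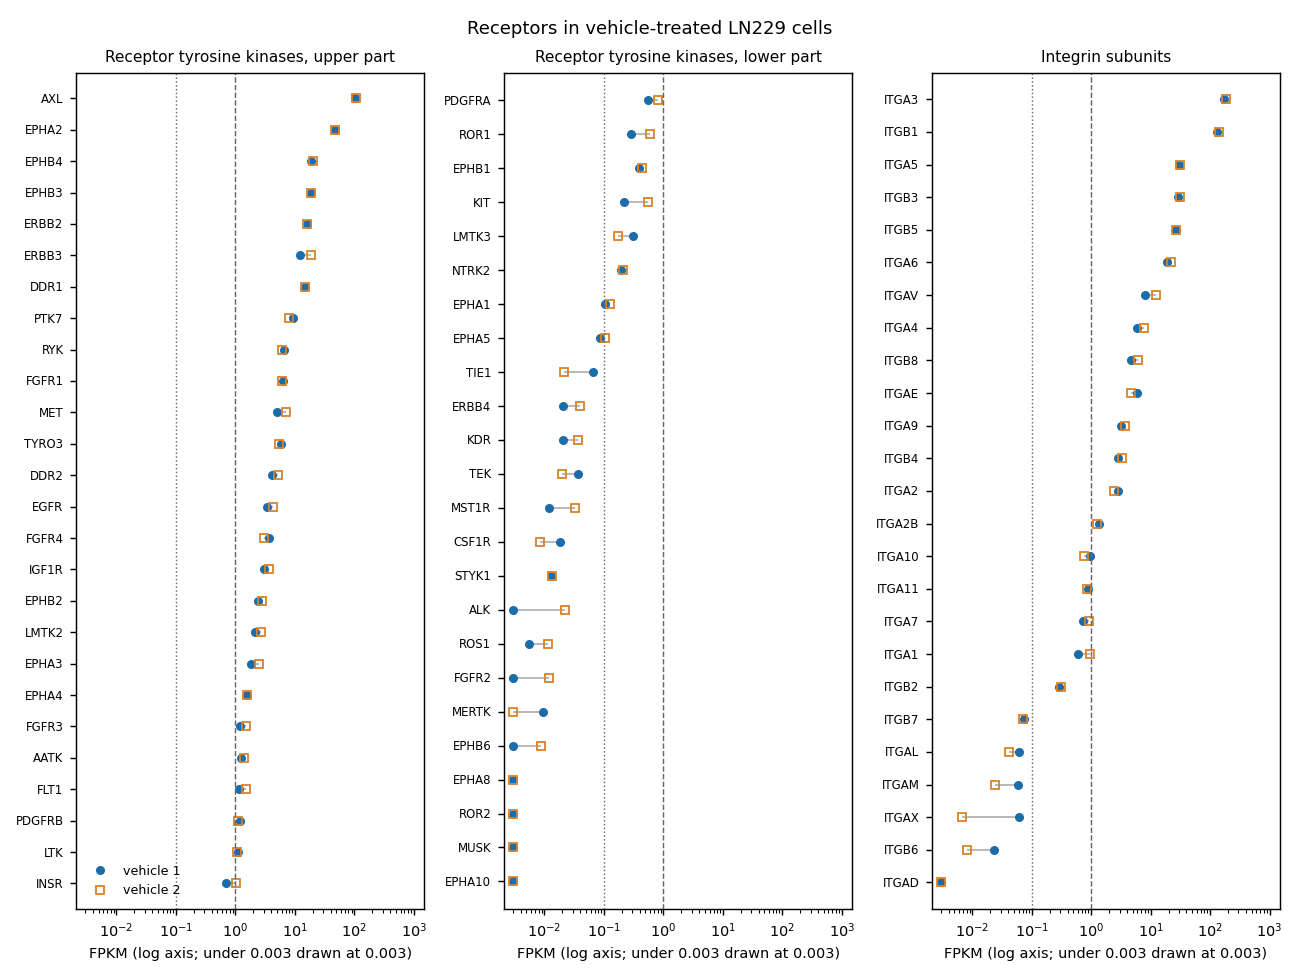
FPKM (log axis) of 50 receptor tyrosine kinases in order of their mean and of 25 integrin subunits, with filled circles for vehicle 1 and open squares for vehicle 2. Dashed and dotted lines are 1 and 0.1 FPKM, and values under 0.003 are drawn at 0.003. AXL, at 104 and 108 FPKM, stands apart from the other receptor kinases, as ITGA3 and ITGB1 stand apart from the other integrins.

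Integrins, the dimeric receptors that tie the cell to its matrix, were expressed from 14 of 25 measured subunit genes. ITGA3, the alpha subunit of a laminin receptor, measured 169 and 184 FPKM, and ITGB1, the beta subunit it pairs with, 129 and 142 FPKM. Both were above every other subunit beyond the spread. ITGA5, which pairs with ITGB1 to bind fibronectin, measured 29.7 and 31 FPKM. The beta subunits ITGB3 (28.8 and 31.7 FPKM) and ITGB5 (26.9 and 27.2 FPKM), partners of ITGAV (8.12 and 12.5 FPKM), were also expressed, as was ITGA6, another laminin-binding alpha subunit, at 18.9 and 22.2 FPKM. The leukocyte subunits ITGAL, ITGAM and ITGAX were near-silent, and ITGAD was listed at 0.

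Other surface receptors gave a mixed picture, with 15 of 29 cytokine and death receptors, 14 of 37 G protein-coupled receptors, 7 of 14 TGF-beta and BMP receptors and 11 of 18 Notch, Wnt and Hedgehog receptors expressed. TNFRSF12A (Fn14), the receptor of TWEAK, was the highest of the cytokine and death group at 173 and 148 FPKM. The interferon-gamma receptor chain IFNGR2 measured 41.5 and 41.9 FPKM and its partner IFNGR1 2.63 and 2.95 FPKM. NGFR, the low-affinity neurotrophin receptor of neural crest and glial cells, measured 33.7 and 30.2 FPKM. Among the G protein-coupled receptors, the thrombin receptor F2R measured 42.4 and 50.2 FPKM and the adenosine receptor ADORA2B 23.6 and 24.2 FPKM. ENG, a co-receptor for TGF-beta, measured 23.1 and 21.1 FPKM, TGFBR2 8.3 and 10.4 FPKM and TGFBR1 2.1 and 2.81 FPKM. The Hedgehog transducer SMO measured 17.8 and 16.3 FPKM and its inhibitor PTCH1 1.2 and 2.03 FPKM. NOTCH1 and NOTCH2 measured 7.5 and 9.17 FPKM, and 6.21 and 8.18 FPKM, whereas NOTCH3 was under the threshold at 0.273 and 0.268 FPKM. Receptors for glutamate and GABA were the least expressed of the receptor groups, at 3 of 19 genes with 15 near-silent, and the highest was GABRA3, a GABA-A receptor subunit, at 2.39 and 3.01 FPKM.

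Of 42 nuclear receptors, transcription factors that mostly bind small lipophilic ligands, 21 were expressed. The orphan receptor NR2F6 (21.2 and 22 FPKM) and the retinoic acid receptor RARG (19 and 17.7 FPKM) were highest. The glucocorticoid receptor NR3C1 measured 3.79 and 4.74 FPKM, and the oestrogen receptor ESR1 was listed at 0 in both libraries.

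Secreted growth factors were expressed from 19 of 36 genes. VEGFB measured 147 and 125 FPKM, whereas VEGFA, the main angiogenic factor of hypoxic tumours, measured 3.51 and 4.51 FPKM. The heparin-binding neurite factors PTN (101 and 103 FPKM) and MDK (63.5 and 55.6 FPKM), TGFB1 (76.8 and 70.1 FPKM) and the EGF receptor ligand TGFA (47.9 and 55.3 FPKM) were the next highest. Neither EGF (0.364 and 0.459 FPKM) nor AREG (0.133 and 0.201 FPKM) passed the threshold, and IGF2 was listed at 0. Of 23 cytokines and chemokines 10 were expressed, led by MIF, then LIF, a cytokine of the interleukin-6 family, at 123 and 124 FPKM and CCL2, which attracts monocytes, at 83.9 and 88.4 FPKM. IL6 itself measured 0.231 and 0.379 FPKM and TNF 0.0772 and 0.105 FPKM.

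The glial label of the cells was set against lineage markers. Of 28 glial and neural lineage factors 16 were expressed. SOX10 (ENSG00000100146), the factor of oligodendrocytes and neural crest derivatives, was far above the rest at 188 and 181 FPKM. SOX2, a factor of neural stem cells, measured 24.4 and 29 FPKM, the HLH inhibitors ID1 and ID3 62.7 and 55.1 FPKM, and 48.8 and 42.3 FPKM, and NKX2-2, a factor of oligodendrocyte progenitors, 12.4 and 11.7 FPKM. OLIG2, which acts in the same lineage, was lower at 3.51 and 2.24 FPKM. SOX9, a factor of astrocytes, was at 0.0336 and 0.107 FPKM, and NFIA, which switches progenitors to gliogenesis, was near-silent at 0.003 and 0.0143 FPKM. NFIX and NFIB, of the same family, were expressed at 16.5 and 10.9 FPKM, and 1.87 and 2.15 FPKM.

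Astrocyte markers were split. Of 13 measured, 8 were expressed, a share close to the 62.2% of all protein-coding genes. They were led by S100B (ENSG00000160307), a calcium-binding protein of astrocytes and Schwann cells, at 328 and 305 FPKM and by FABP7, a fatty acid-binding protein of radial glia, at 29.2 and 29.5 FPKM. GFAP, the intermediate filament that defines astrocytes, was at 0.12 and 0.102 FPKM. The glutamate transporters SLC1A3 (0.0421 and 0.0375 FPKM) and SLC1A2 (0 and 0.0126 FPKM) were near-silent, and the water channel AQP4 and the connexin GJB6 were listed at 0. GFAP, AQP4 and both transporters, which define a mature astrocyte, were thus at or near 0 in these cells, while S100B was high.

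Of 12 oligodendrocyte lineage markers 7 were expressed. This share and that of the neural stem cell markers below were also close to the 62.2% of all protein-coding genes. Below SOX10 came CSPG4 (NG2), the proteoglycan of progenitors, at 37.4 and 39.2 FPKM, CNP, a myelin enzyme, at 46.3 and 24 FPKM, and MAG, a glycoprotein of myelin, at 11.5 and 15.8 FPKM. MBP, a structural protein of myelin, was at 0.105 and 0.0821 FPKM. Neural stem cell markers were expressed from 7 of 11, with the intermediate filament NES at 119 and 133 FPKM and the hyaluronan receptor CD44 at 19.2 and 19.7 FPKM, while PAX6 was at 0.000833 and 0.00617 FPKM and PROM1 (CD133) was listed at 0. Among 12 neuron markers the 5 expressed were led by the tubulin TUBB3 (90.7 and 75.4 FPKM) and the enolase ENO2 (37.9 and 36.6 FPKM), and the nuclear neuron marker RBFOX3 was at 0.00446 and 0.00944 FPKM. MITF, the melanocyte factor, was just above the threshold at 1.1 and 1.43 FPKM, and the pigment cell antigen MLANA was listed at 0.

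Markers of vessel, immune, muscle and epithelial cells were mostly under the threshold. None of 7 endothelial markers was expressed and 4 were near-silent, with VWF highest at 0.241 and 0.117 FPKM. Of the immune markers 11 of 13 were near-silent, with PTPRC (CD45) at 0.0474 and 0.0506 FPKM. The 2 immune markers that were expressed were CD74 and the lysosomal protein CD68 (16.7 and 18.4 FPKM). Of 11 epithelial markers, the keratins KRT14 (9.49 and 7.61 FPKM) and KRT19 (1.45 and 2 FPKM) were expressed, and the adhesion genes CDH1 (0.0454 and 0.126 FPKM) and EPCAM (0.0181 and 0.257 FPKM) were not. Of 7 pericyte and muscle markers 3 were expressed, the smooth muscle actin ACTA2 at 6.89 and 6.47 FPKM, the actin-binding CNN1 at 3.35 and 2.58 FPKM and PDGFRB near the threshold, while the muscle filament gene DES was near-silent at 0 and 0.0152 FPKM.

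**Figure D3:**
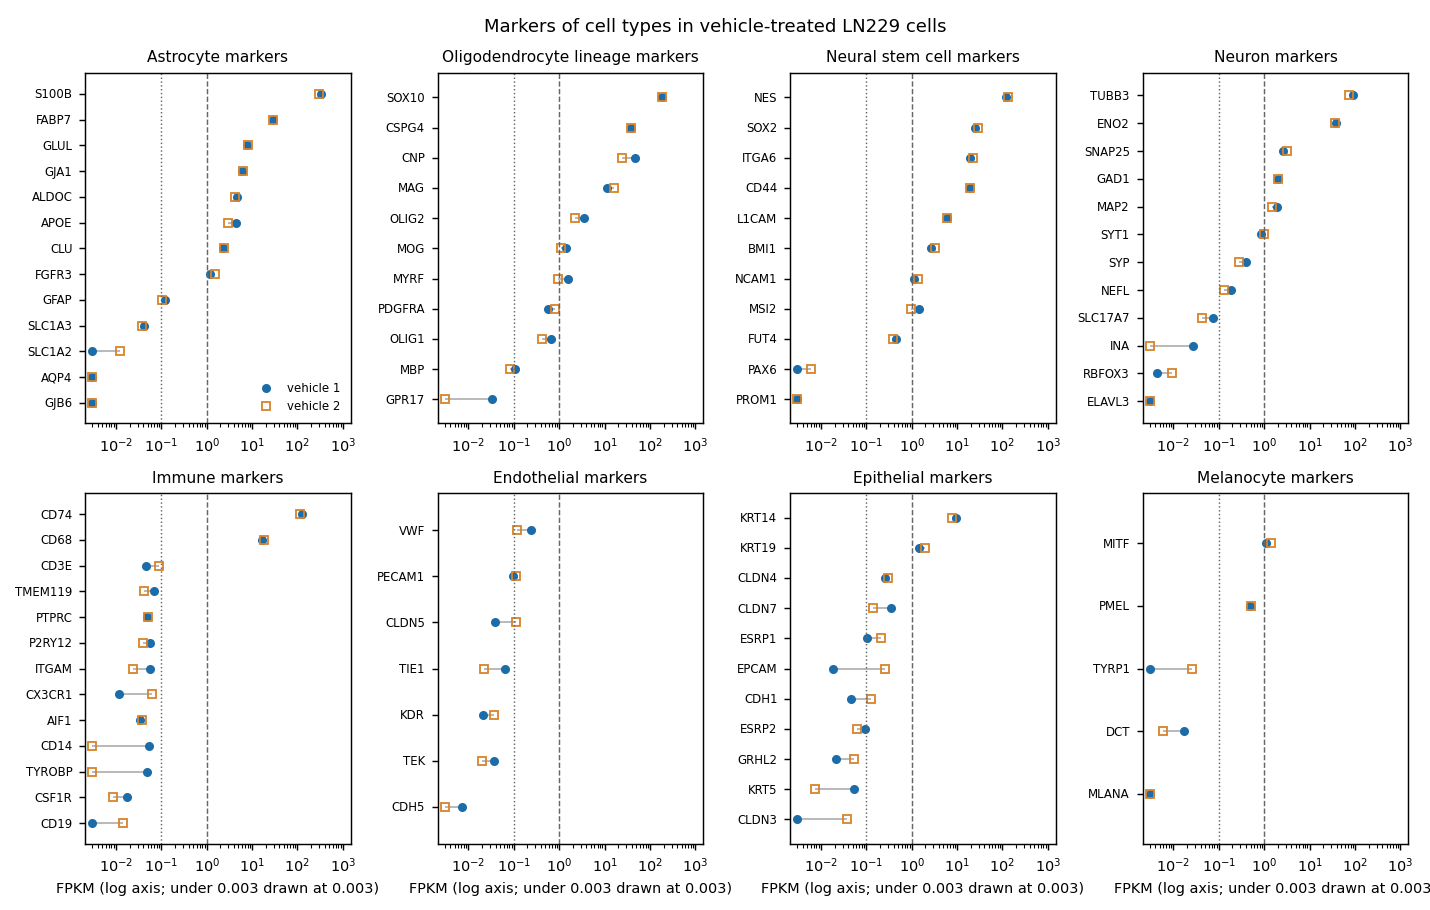
FPKM (log axis) of markers of 8 cell types, each list in order of its mean, with filled circles for vehicle 1 and open squares for vehicle 2, dashed and dotted lines at 1 and 0.1 FPKM, and values under 0.003 drawn at 0.003. S100B, SOX10 and NES reach 100 FPKM or more, whereas GFAP, AQP4 and PROM1, the endothelial markers and all but 2 immune markers lie under the dashed line.

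CD74 is the invariant chain of HLA class II molecules. HLA-DRA, the class II alpha chain, measured 219.7 and 215 FPKM, HLA-DRB1, a beta chain, 125 and 137 FPKM and CD74 127 and 113 FPKM. HLA-DPA1 measured 21.1 and 22.4 FPKM. CIITA, the transactivator that drives class II genes, was near the threshold at 0.96 and 1.18 FPKM. Among class I genes HLA-C measured 31.1 and 30.2 FPKM and HLA-B 12.2 and 12.4 FPKM, without overlap between them, with the light chain B2M at 86.5 and 83.8 FPKM. HLA genes are alike in sequence and vary between people, so their levels against one reference are uncertain. Of 30 antigen presentation genes and checkpoint ligands 24 were expressed. CD276 (B7-H3) measured 27.3 and 31.3 FPKM, CD47, a signal against phagocytosis, 5.07 and 5.72 FPKM, and CD274 (PD-L1) 0.605 and 0.683 FPKM.

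Mesenchymal factors were expressed from 24 of 31 genes, a share of 77.4% against 57.1% of the glial and neural factors and 62.2% of all protein-coding genes. Both lists were written by hand with earlier results of these data known. The contrast between them therefore depends on the choice of members and is not a result about lineage. FOSL1, an AP-1 subunit, measured 124 and 112 FPKM and was above the rest of the list beyond the spread. CEBPB, a regulator of the mesenchymal state of glioma, measured 46.8 and 44.1 FPKM, BHLHE40 29.5 and 33.3 FPKM and STAT3 9.29 and 10.3 FPKM. The EMT factors SNAI1, TWIST2 and TWIST1 measured 27.4 and 25 FPKM, 20.3 and 15.4 FPKM, and 13.9 and 15.4 FPKM, and ZEB1 1.19 and 1.44 FPKM. Of the expression subtypes of glioblastoma, 19 of 23 mesenchymal, 10 of 11 classical and 6 of 9 proneural markers were expressed, with list medians of 11.5, 3.85 and 2.87 FPKM against 2.44 over all protein-coding genes. The lists are short and no subtype was called. CHI3L1, a common mesenchymal marker, was listed at 0 and 0.07 FPKM, and SOX10 is one of the proneural markers.

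Genes of the kinases and of the effector that the study is about were expressed at rest. SRC measured 9.3 and 10.1 FPKM, YES1 5.45 and 5.52 FPKM and FYN 3.34 and 3.81 FPKM, while LYN was near-silent at 0.0356 and 0.0349 FPKM. Of the p38 kinases, MAPK11 (p38 beta) was higher than MAPK14 (p38 alpha) in both libraries, at 21.8 and 17.6 FPKM, and 2.99 and 6.97 FPKM, and MAPK13 was at 0.0352 and 0.0468 FPKM. The Hippo effector TAZ (WWTR1) measured 24.7 and 28.2 FPKM and YAP1 2.84 and 1.31 FPKM, a difference beyond the spread. TEAD4 was the highest of their DNA-binding partners at 11.5 and 11.3 FPKM, and the YAP targets CCN2 and CCN1, matricellular proteins, measured 72.8 and 74.1 FPKM, and 50.6 and 50.6 FPKM.

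HOX genes were expressed from 26 of 38 measured members. All 9 HOXC genes, 7 of 9 HOXB, 5 of 11 HOXA and 5 of 9 HOXD genes passed the threshold, and the summed FPKM of the clusters was 61.4 and 61.3 for HOXC, 56.4 and 58.1 for HOXB, 22.4 and 20.2 for HOXD and no more than 13.8 for HOXA. HOXB7 was highest at 34.6 and 33.4 FPKM. HOXC10 measured 23 and 24.3 FPKM and HOXC13, at the 5′ end of its cluster, 14.7 and 13.4 FPKM, and these 3 did not overlap. Near the 3′ ends HOXA2 (0.133 and 0.156 FPKM) and HOXB2 (0.0517 and 0.0403 FPKM) were under the threshold, and HOXA9 was at 0.029 and 0.157 FPKM. Some HOX genes of one cluster share exons with their neighbours and with antisense RNAs, so single levels within a cluster are uncertain.

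**Figure D4:**
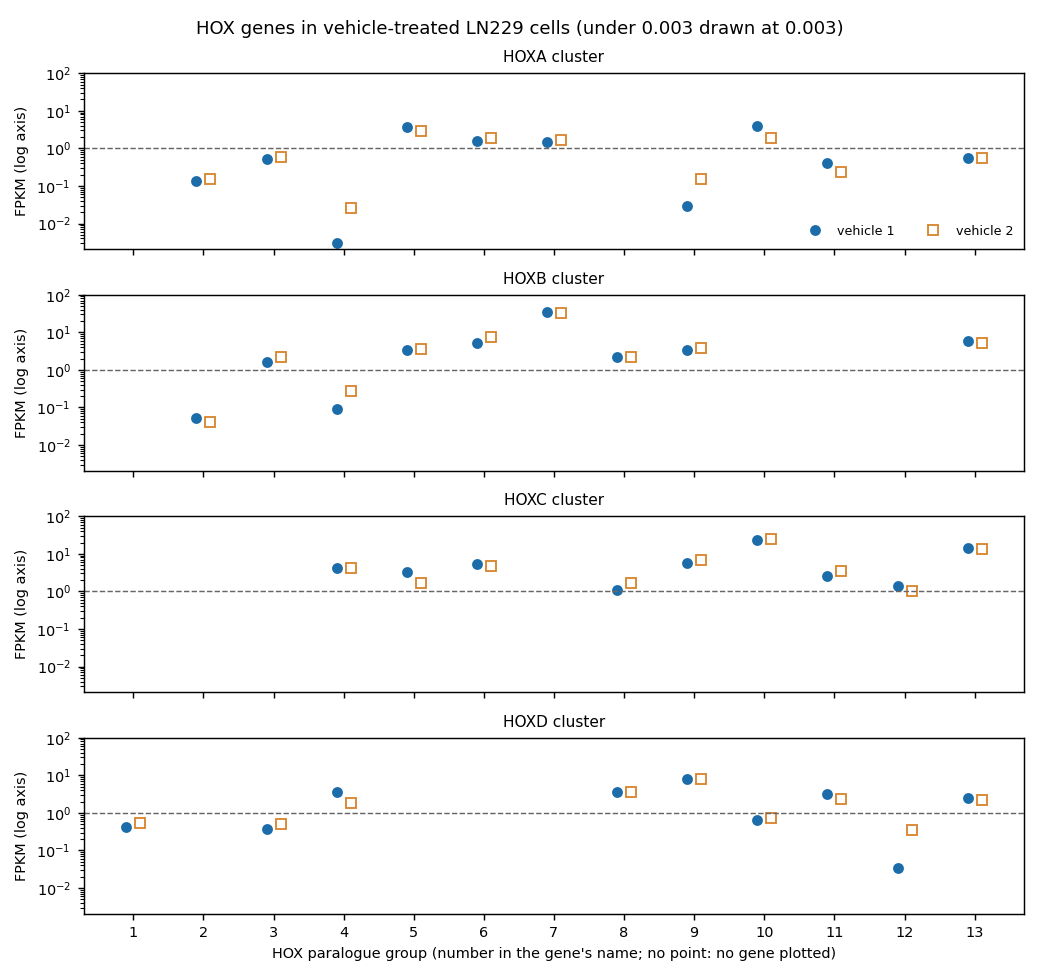
FPKM (log axis) of 37 HOX genes by cluster and by the number in the gene's name, with filled circles for vehicle 1, open squares for vehicle 2, a dashed line at 1 FPKM and values under 0.003 drawn at 0.003. Every HOXC gene lies above the line, and HOXB7 and HOXC10 are the highest.

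Of 33 other factors of regional identity 12 were expressed. TBX2, of the T-box family, measured 10.4 and 10.9 FPKM, EN1, a factor of midbrain and hindbrain, 9.34 and 7.82 FPKM, and LHX2 5.54 and 6.01 FPKM.

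Matrix genes showed a clear division between members of the same families. Of 39 matrix glycoproteins and proteoglycans 24 were expressed and 18 of them reached 10 FPKM. SPARC (ENSG00000113140), a collagen-binding glycoprotein, measured 434 and 455 FPKM, the protease inhibitor SERPINE2 219 and 234 FPKM and fibronectin (FN1) 186 and 256 FPKM. SPARC lay above the others beyond the spread. Tenascin-C (TNC), a glycoprotein of glioma matrix, measured 87.5 and 100.4 FPKM, and thrombospondin-1 (THBS1) 68.8 and 82.9 FPKM. The brain proteoglycan BCAN was at 0.0947 and 0.0313 FPKM and periostin (POSTN) at 0.00797 and 0.00792 FPKM.

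Of 37 collagen genes 21 were expressed. Collagen VI dominated, with COL6A2 at 129.6 and 132 FPKM and COL6A1 at 109 and 114 FPKM, although the third chain COL6A3 was at 0.67 and 0.739 FPKM. The cartilage-type chains COL9A3 (62.8 and 69.4 FPKM) and COL11A1 (29.3 and 43.1 FPKM) came next, followed by the fibril-associated COL12A1 (25.8 and 38.1 FPKM). The fibrillar chains of collagens I and III were low. COL1A1 measured 2.47 and 2.43 FPKM, COL3A1 1.08 and 1.19 FPKM and COL1A2 0.453 and 0.374 FPKM. COL5A1, another fibrillar chain, was higher at 13.9 and 17.8 FPKM. Of the chains of basement membrane collagen IV, COL4A2 (21.8 and 24.2 FPKM), COL4A1 (7.51 and 8.29 FPKM) and COL4A5 (1.2 and 1.41 FPKM) were expressed, and COL4A3, COL4A4 and COL4A6 were under the threshold. Of 12 laminin chains 5 were expressed, LAMC1 (53.4 and 66.8 FPKM), LAMB1 (32.9 and 45.1 FPKM), LAMA4 (18.3 and 24.5 FPKM), LAMB2 (17.9 and 19.3 FPKM) and LAMB3 (4.62 and 5.46 FPKM), so that LAMA4 was the single alpha chain to pass in both libraries.

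Enzymes that modify collagen were expressed from 13 of 17 genes, with a list median of 38.9 FPKM. P4HB, a subunit of prolyl hydroxylase, measured 407 and 405 FPKM and the collagen chaperone SERPINH1 149 and 141 FPKM. Among the lysyl oxidases that crosslink collagen, LOXL2 measured 184 and 191 FPKM and LOXL3 126 and 125 FPKM. LOX itself was at 0.0705 and 0.0551 FPKM, LOXL1 at 0 and 0.166 FPKM and LOXL4 at 0.00644 and 0.0388 FPKM, all under the threshold.

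Matrix proteases and inhibitors were expressed from 21 of 34 genes. The gelatinase MMP2 measured 393 and 395 FPKM, the membrane protease MMP14, which activates it, 63.8 and 62.5 FPKM, and the other gelatinase, MMP9, 0.252 and 0.299 FPKM. The inhibitors TIMP1 (582 and 576 FPKM) and TIMP3 (308 and 329.9 FPKM) were high in both libraries. TIMP2 differed between them, at 37.1 and 118 FPKM. Of the plasminogen activators PLAT was expressed at 72.3 and 81.5 FPKM and PLAU was under the threshold at 0.443 and 0.286 FPKM, while the receptor PLAUR measured 11.1 and 10.3 FPKM.

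The 46 measured actin-associated, galectin, annexin and S100 genes held 6.53% and 5.99% of the summed FPKM in vehicle 1 and vehicle 2, and 43 were expressed. Vimentin (VIM), the intermediate filament of mesenchymal cells, measured 623 and 494 FPKM, lamin A (LMNA) 198 and 140.4 FPKM and KRT18 25.4 and 23.6 FPKM. Of genes typical of smooth muscle, beside ACTA2 and CNN1 above, TAGLN was expressed at 3.27 and 2.91 FPKM and MYL9 was near-silent at 0.0157 and 0.0289 FPKM. CAV1 and CAVIN1 of caveolae measured 59.7 and 99.9 FPKM, and 241 and 225 FPKM. N-cadherin (CDH2) measured 11.4 and 11.5 FPKM and the highest cadherin was CDH13, which is anchored by a lipid, at 14.7 and 17.7 FPKM. CDH19, a cadherin of glial precursors of nerves, measured 6.03 and 6.5 FPKM. Of 17 tubulins 12 were expressed, and those of nearly the same sequence, such as TUBB2A (112 and 104 FPKM) and TUBB2B (154 and 144 FPKM), are uncertain.

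Of 20 tumour suppressor genes of glioma 14 were expressed. RB1 (ENSG00000139687), which holds back entry into S phase, measured 4.1 and 6.07 FPKM. RNA level says nothing of whether the protein is intact. NF1, a brake on RAS, was at 0.286 and 0.454 FPKM and the chromatin remodeller ATRX at 0.252 and 0.433 FPKM, both under the threshold. The 4 near-silent members were CDKN2A (0.055 and 0.0211 FPKM), CDKN2B (0 and 0.0112 FPKM) and CDKN2C (0.0146 and 0.0312 FPKM), which inhibit CDK4 and CDK6, and PTPRD (0.00393 and 0.00841 FPKM), a receptor phosphatase.

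CDKN2A (ENSG00000147889) and CDKN2B lie side by side on chromosome 9, CDKN2A starting at 21967753 and CDKN2B ending at 22009363 on GRCh38. The antisense RNA of the locus, CDKN2B-AS1, was also near-silent at 0.0312 and 0.0228 FPKM. The neighbour MTAP, an enzyme of methionine salvage, was expressed at 1.29 and 1.68 FPKM, and so were KLHL9 (4.31 and 5.4 FPKM) and the long non-coding RNA MIR31HG (4.42 and 4.88 FPKM) on the side of MTAP and TUSC1 (4.21 and 4.17 FPKM) on the other. DMRTA1, the next listed gene past CDKN2B, was at 0.923 and 1.25 FPKM, under the threshold in vehicle 1 and above it in vehicle 2. Of the 20 measured genes of the neighbourhood 8 were expressed and 8 near-silent, and the near-silent ones included IFNA1, TEK and LRRC19, which are made in other cell types. HACD4, further out on the side of MTAP, was listed at 0. DNA copy number and methylation were not measured.

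**Figure D5:**
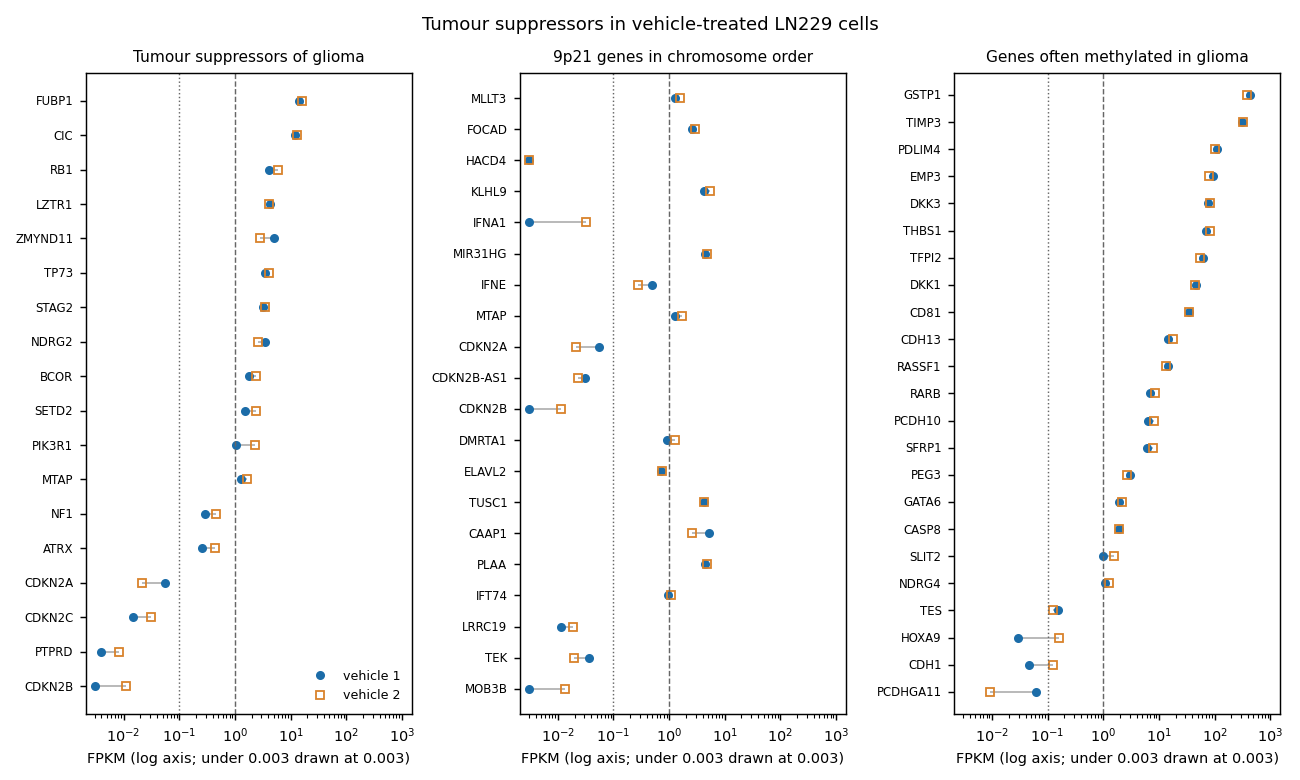
FPKM (log axis) of 18 tumour suppressors of glioma, of 20 genes of 9p21 in chromosome order and of 23 genes often methylated in glioma, with filled circles for vehicle 1, open squares for vehicle 2, dashed and dotted lines at 1 and 0.1 FPKM and values under 0.003 drawn at 0.003. CDKN2A, CDKN2B-AS1 and CDKN2B fall together under the dotted line between MTAP and DMRTA1.

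Of 38 further tumour suppressors 23 were expressed, led by CDKN1A (p21, 77.3 and 64.1 FPKM), CDKN1B (20.8 and 21.1 FPKM) and BAP1 (18.4 and 17 FPKM), and 4 were near-silent. Of 23 measured genes that are often silenced by promoter methylation in glioma 18 were expressed. The glutathione transferase GSTP1 measured 439 and 378 FPKM, TIMP3 308 and 329.9 FPKM and the Wnt antagonists DKK3 and DKK1 77.6 and 81.1 FPKM, and 46.6 and 44.3 FPKM. One gene of this list, PCDHGA11, was near-silent in both libraries.

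Cell cycle genes were active. All 19 proliferation markers were expressed, with a list median of 48.8 FPKM, from BUB1 at 7.79 and 8.69 FPKM to PCNA, the sliding clamp of DNA polymerase, at 232 and 275 FPKM. UBE2C, which acts in mitotic exit, measured 244 and 222 FPKM and MKI67 11.3 and 17.9 FPKM. Cyclin D1 (CCND1) measured 102 and 117 FPKM and its kinase CDK4 114 and 84.2 FPKM. The family was split: CCND3 measured 12.6 and 9.69 FPKM and CCND2 was listed at 0 in both libraries. CDK6, the other partner of the D cyclins, measured 1.9 and 2.67 FPKM. E2F1, the factor that drives S phase, measured 103 and 93.2 FPKM. MYC was modest at 3.46 and 3.48 FPKM beside MYCN at 1.96 and 2.07 FPKM, and MYCL was listed at 0. The anti-apoptotic genes MCL1 and BCL2L1 measured 58.8 and 57.7 FPKM, and 38.5 and 38.4 FPKM, whereas BCL2 was at 0.665 and 0.479 FPKM. TERT, the catalytic subunit of telomerase, was at 0.0985 and 0.111 FPKM, while NOP10 (197 and 172 FPKM) and NHP2 (84.7 and 77.2 FPKM), which are shared with other ribonucleoproteins, were high.

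Cancer-testis antigens, genes of the germ line that tumours can express, were expressed from 9 of 27 members. CTAG2 measured 65.8 and 57.8 FPKM, MAGEA3 32.4 and 34.6 FPKM, MAGEA12 33.1 and 31.7 FPKM, MAGEA6 36 and 27.4 FPKM and MAGEA1 27.5 and 26 FPKM. MAGEA3 and MAGEA6 are near-identical, as are the GAGE copies, so their single levels are uncertain. MAGEA4 was at 0.186 and 0.214 FPKM and DDX53 was listed at 0.

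Of 24 glycolysis genes 22 were expressed, 9 at 100 FPKM or more, and the list held 3.76% and 3.55% of the summed FPKM. Below GAPDH and the other enzymes named above, pyruvate kinase PKM measured 623 and 583 FPKM and lactate dehydrogenase LDHA 354 and 324 FPKM. Of the glucose transporters SLC2A1 measured 19.4 and 27.1 FPKM. Antioxidant and NADPH enzymes were expressed from 25 of 31 genes, among them the peroxiredoxin PRDX5 (573 and 503 FPKM) and the quinone reductase NQO1 (183 and 172 FPKM). Manganese superoxide dismutase (SOD2) was under the threshold at 0.474 and 0.536 FPKM beside the copper enzyme SOD1 at 137 and 126 FPKM. The glycogen phosphorylase of brain, PYGB, was high at 516 and 504 FPKM, above that of liver, PYGL (28.4 and 33.6 FPKM), and of muscle, PYGM, which was listed at 0.

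Cytosolic ribosomal protein genes were expressed from 81 of 83, with a list median of 152 FPKM. In the KEGG annotation of the deposited table, all 42 protein-coding genes of the proteasome, 127 of 130 of the spliceosome, 129 of 132 of the ribosome and 34 of 36 of DNA replication were expressed. At the other end stood neuroactive ligand-receptor interaction, with 39 of 171, taste transduction, with 9 of 38, and cytokine-cytokine receptor interaction, with 56 of 183. Oxidative phosphorylation had 116 of 124 genes expressed, and glycolysis and gluconeogenesis 41 of 52. The KEGG set named glioma had 47 of 64 genes expressed (73.4%) and that for extracellular matrix-receptor interaction 42 of 74 (56.8%). The share over all protein-coding genes was 62.2%.

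The libraries agreed closely in order. Over the 11382 genes with a mean of at least 1 FPKM, Pearson's r was 0.974 and Spearman's rho 0.966 on log2(FPKM + 0.5), given across genes as a description, and the median absolute difference was 0.18 on that scale. It was 0.21 for genes of 1 to 5 FPKM and 0.14 for those over 100 FPKM. Differences of 2-fold or more were seen for 276 genes (2.42%), so a small difference of level between genes of a few FPKM is within this spread.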

How the data were processed

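Total RNA of LN229 cells was extracted with Trizol and sequenced by a commercial provider. Reads were handled with cutadapt 1.9 and FastQC on GRCh38 per the submitters' processing notes, and with HISAT2 on Ensembl release 101 per the series text. The tool behind FPKM and the library strand are not given in the sources used here. In 1 table the authors deposited FPKM for 27694 genes, with their fold change (a ratio), its log2, p-value and q-value for the comparison with UM-164. These and the 2 UM-164 columns were not used. FPKM holds no depth, and its values are relative: where some genes take up more fragments, the others read lower.

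A gene with protein_coding among its types counted as protein-coding, and otherwise its first type was its class. The 20 highest nuclear protein-coding genes, the 10 highest others, the 4 highest and the well-known members of each list, and the 5 genes over 5 FPKM that differ most between libraries were to be named; PYGB and its relatives and the parents of pseudogenes were chosen after their values were seen. The members and all 50 lists were chosen with earlier results of these data known. Of the lists, 48 were written by hand, and 2 (cytosolic ribosomal proteins and mitochondrially encoded proteins) were taken by symbol pattern. A few list members are not reported here by name and are left out of the plots, but stay in the counts, and a few others are given only as counts. Genes of the lists without a row are not analysed here. In all, 6 cells of the KEGG column were not used. Coordinates are from GENCODE v29 on GRCh38, matched by gene ID (27034 of 27694). RefSeq promoter windows, matched by symbol, covered 12163 of 15431 nuclear protein-coding genes (78.8%), under the 80% needed, so a comparison of promoters across levels is void and was not made. Python 3.11.15, numpy 2.4.6, pandas 2.3.3 and matplotlib 3.10.9 were used, and the functions were tested on simulated data. Other thresholds, scalings and pseudocounts and each library alone were tried.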

Additional observations from a re-analysis of the deposited data

How the results depend on the processing

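No paired analysis was possible because 1 group is described and its libraries have no partner. With a threshold of 5 FPKM in place of 1, 5556 genes were expressed in place of 10837, and with 0.5 FPKM in place of 0.1, 13571 were near-silent in place of 8122. Rescaling each library to a sum of 1000000 (the sums of FPKM were 292776 and 281619) moved the genes at 100 or more from 378 to 1429 over all genes and to 1480 over protein-coding genes alone, because every value is then multiplied. The share of protein-coding genes was 89.9%, but 58.8% when a gene's first listed type decided its class, and 90.4% over expressed genes. Over expressed genes long non-coding RNAs held 3.85% and processed pseudogenes 3.20%. The 10 highest protein-coding genes held 18.4% of the coding sum. With 1 library at a time, 11224 to 11506 genes were expressed, 388 to 421 reached 100 FPKM and 9562 to 9842 were near-silent. Over all 50 lists, 716 of 1154 distinct members were expressed, 486 at a threshold of 5 and 834 after rescaling. A threshold of 5 kept the count within 1.5-fold for 23 of 50 lists, a threshold of 0.5 for 49, rescaling for 48, and each library alone for 49 to 50. Small structured RNAs went from 3 of 15 to 6 in vehicle 1 alone. The median difference between libraries lay between 0.14 and 0.19 on the log2 scale under other pseudocounts, filters and scaling. Depth is unknown, so values near 0 cannot be told from 0.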

Other observations

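Some genes differed far more between the vehicle libraries than the rest. Among genes with a mean of at least 5 FPKM the small nucleolar RNA gene SNORD58B was listed at 82.6 and 0.147 FPKM, AC004542 at 0.00168 and 25.2 FPKM and MIR4707 at 0.000151 and 22.7 FPKM. C19orf71 was listed at 21.9 and 0 FPKM and AC005786, which begins just past its end on chromosome 19 on the same strand, at 0 and 21.1 FPKM, so that each library held one of the neighbours. EID1, an inhibitor of the acetyltransferase p300, was at 4.74 and 105 FPKM, and MATR3 (ENSG00000280987), a gene ID that overlaps others at its locus, at 0.893 and 11.8 FPKM. Chosen after their values were seen, the membrane protein gene EMP1 was at 7.52 and 33 FPKM and the serine protease gene PRSS23 at 41.4 and 8.35 FPKM.

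The difference between the libraries varied with transcript length. Over the 9936 protein-coding genes with a mean of at least 1 FPKM and a GENCODE v29 length (the median over the transcripts the table lists for the gene, short isoforms included), the median of vehicle 2 minus vehicle 1 was 0.02 on the log2(FPKM + 0.5) scale for lengths under 1000 bases, 0.03 from 1000 to 2000, 0.12 from 2000 to 4000 and 0.21 over 4000 bases. Of the 665 genes over 4000 bases 85.0% were higher in vehicle 2, against 54.2% of the 4327 genes under 1000 bases. Among genes picked after their values were seen, the long matrix genes FN1 (186 and 256 FPKM) and COL11A1 (29.3 and 43.1 FPKM) were higher in vehicle 2, and short genes of very high level, such as TMSB10 (5886 and 5004 FPKM) and MIF (1891 and 1540.1 FPKM), were lower there. Over all genes with a mean of at least 1 FPKM, the difference also varied with level. Its median was 0.12 for genes of 1 to 5 FPKM and -0.10 for those over 100 FPKM. Length and level were not separated, so TMSB10 and MIF do not show a pattern of length alone. The part of RNA quality or library preparation in these differences was not tested.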
